A study of Mus musculus with 16 samples.

Results

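The checkpoint and costimulatory ligands described here are encoded by 10 genes, Cd274 (PD-L1), Pdcd1lg2 (PD-L2), Cd80, Cd86, Icosl, Lgals9 (galectin-9), Cd200, Tnfsf9 (4-1BBL), Tnfsf4 (OX40L) and Cd70. They were taken as a fixed list of names, and all 10 of 10 were found among the 31053 genes of the single-cell count matrices. Their unique molecular identifiers (UMIs, 1 per captured mRNA molecule) were followed across 11 classes of tumor-infiltrating immune cells and across 4 groups of tumors. Cd274 was the most counted of the 10, with 29911 UMIs in 8358 cell barcodes. Cd70 was the least counted, with 172 UMIs in 74 barcodes.

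The libraries were made from live CD45+ cells sorted from tumors grown under the skin of the right flank of C57BL/6J mice aged 6 to 8 weeks. The 4 groups were MC38, a colorectal carcinoma line, left untreated (MC38 NT) or taken 24 h after a single CT-guided radiation dose of 12 Gy (MC38 RT), and Panc02-SIY, a pancreatic adenocarcinoma line that carries the model antigen SIY, left untreated (Panc02-SIY NT) or irradiated in the same way (Panc02-SIY RT). Each group held 4 libraries by its labels, although the methods of the study count 3 animals per group. No label ties a library to an animal, and p-values therefore measure the spread between libraries, which may be technical in part.

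A T cell that meets its antigen also reads costimulatory and inhibitory signals from ligands on the presenting cell. CD80 and CD86 bind both CD28, which activates, and CTLA-4, which restrains. PD-L1 and PD-L2 bind the inhibitory receptor PD-1, ICOSL binds the costimulatory receptor ICOS, and 4-1BBL, OX40L and CD70, all of the TNF superfamily, bind 4-1BB, OX40 and CD27. Galectin-9 binds glycoproteins that include TIM-3, and CD200 restrains myeloid cells through CD200R1. Conventional dendritic cells (cDCs) comprise DC1, which present engulfed antigen to CD8 T cells, DC2, and mature cells that carry both regulatory and costimulatory molecules (mregDCs).

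Libraries held 3240877 to 43776342 UMIs in 1008 to 4538 barcodes. The MC38 libraries shared many barcode sequences, with a median of 83.3% of the smaller library per pair and 769 sequences present in all 8, against a median of 5.54% in Panc02-SIY. Each barcode was therefore kept only in the library of its tumor where it had the most UMIs. This left 2632 of 9843 barcodes in MC38 and 18136 of 18835 in Panc02-SIY, or 20768 of 28678 in all. MC38 RT replicate 1 was reduced furthest, to 147 barcodes with 42.8% of its UMIs. In MC38 NT and MC38 RT, 72.8% and 66.0% of kept barcodes had at least 80% of their UMIs in the retained library. Each MC38 result on a ligand is also given for those barcodes alone where its call changed. Classes were assigned by marker genes that include none of the 10 ligands, and 14639 barcodes (70.5%) passed a gate. Of 81 gate markers, which the gating itself favors, 75 were highest in their own class, and so were 28 of 36 markers not used for gating. Most exceptions were markers of DC1 (Batf3 and Itgae, and the unused Id2 and Cd24a) and DC2 (H2-DMb2, Sirpa and Flt3, and the unused Itgam, Irf4 and Tnfsf12). The others were Csf1r, Cd7, Cd63 and Ccl5. In the DC2 gate 21.2% of barcodes lay close to the cut of the gate. The smallest of the 11 gates were mregDC with 124 barcodes, B cell with 188, DC1 with 194 and DC2 with 66.

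On the mouse genome build GRCm38 with the GENCODE M21 annotation, Cd274 (chr19:29367455-29388095, plus strand) and Pdcd1lg2 (chr19:29410919-29471161, plus strand) lie 22823 bp apart, and Tnfsf9 (chr17:57105325-57107757, plus strand) and Cd70 (chr17:57145997-57149777, minus strand) lie 38239 bp apart. On chromosome 16 lie Cd80 (chr16:38455561-38496335, plus strand), Cd86 (chr16:36603869-36666081, minus strand) and Cd200 (chr16:45382135-45409053, minus strand). The remaining loci are Lgals9 (chr11:78962974-78984946, minus strand), Icosl (chr10:78069302-78083913, plus strand) and Tnfsf4 (chr1:161395409-161418410, plus strand).

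RefSeq start sites on GRCm38.p6 were matched for 6 of the 10 genes, and the bases before the start are shown for Lgals9 and Cd80, since these 2 were called higher after radiation in Panc02-SIY and alone among the 6 held a match to the interferon or the AP-1 motif searched. Cd274 and Icosl, also among the 6, were called higher there as well and held neither motif. Capitals mark the matches. Positions are counted back from the RefSeq start, and the Lgals9 stretch stops short of it, since GENCODE places the last bases before that start in an exon.
Lgals9, chr11:78984947-78985174, minus strand: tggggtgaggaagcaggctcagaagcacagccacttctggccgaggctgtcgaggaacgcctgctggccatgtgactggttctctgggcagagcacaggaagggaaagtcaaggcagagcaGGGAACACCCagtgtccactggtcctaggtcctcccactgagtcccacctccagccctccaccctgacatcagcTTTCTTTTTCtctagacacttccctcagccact
Cd80, chr16:38458683-38458932, plus strand: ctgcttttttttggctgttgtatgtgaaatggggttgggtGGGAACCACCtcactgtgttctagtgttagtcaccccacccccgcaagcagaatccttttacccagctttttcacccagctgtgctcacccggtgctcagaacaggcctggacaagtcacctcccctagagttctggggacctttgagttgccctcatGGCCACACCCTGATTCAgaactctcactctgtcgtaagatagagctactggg
Both strands were searched. In the Lgals9 window the interferon-stimulated response element (GAAANNGAAA) was matched on the opposite strand 55 to 46 bases before the start, and an NF-kB site (GGGNNNNNCC) 129 to 120 bases before it. In the Cd80 window the NF-kB pattern was matched 210 to 201 and, on the opposite strand, 52 to 43 bases before the start, and an AP-1 site (TGANTCA) followed directly at 42 to 36 bases without overlap. The Cd80 window lies in an intron of a longer GENCODE transcript. Among 32851 windows of 250 bases, 2.98% held the interferon element, 45.8% the NF-kB pattern and 6.75% the AP-1 pattern. A gamma-activated site (TTCNNNGAA) and a p53 half-site, held by 7.02% and 7.13% of windows, were matched in none of the 6. These letter matches are a description and show no binding.

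To ask which cells carried each ligand, UMIs were summed per library and gate and given as CPM, the gene's UMIs relative to all UMIs of the same sum on the customary scale. The heatmap of these levels shows a mregDC column in which 6 of the 10 genes had their highest mean, while Cd274 was highest in neutrophils, Cd86 and Lgals9 in monocytes and Tnfsf9 in DC2, a mean without any Panc02-SIY NT library. Levels are compared between classes within a gene, with each library as a block in edgeR's quasi-likelihood test. A call required an adjusted p below 0.1 and a change above 1.3-fold. Many genes differ between classes. Of all genes tested, 51.0% were called between mregDCs and Tregs, 55.7% between mregDCs and NK cells, 40.1% between mregDCs and B cells and 63.4% between NK cells and monocytes, and other shares stand beside their comparison. The neutrophil and DC1 means came from 8 Panc02-SIY libraries each, the mregDC mean from 7 Panc02-SIY and 2 MC38 libraries, and the DC2 mean from MC38 NT replicate 3, MC38 RT replicate 3 and 3 Panc02-SIY RT libraries.

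**Figure D1:**
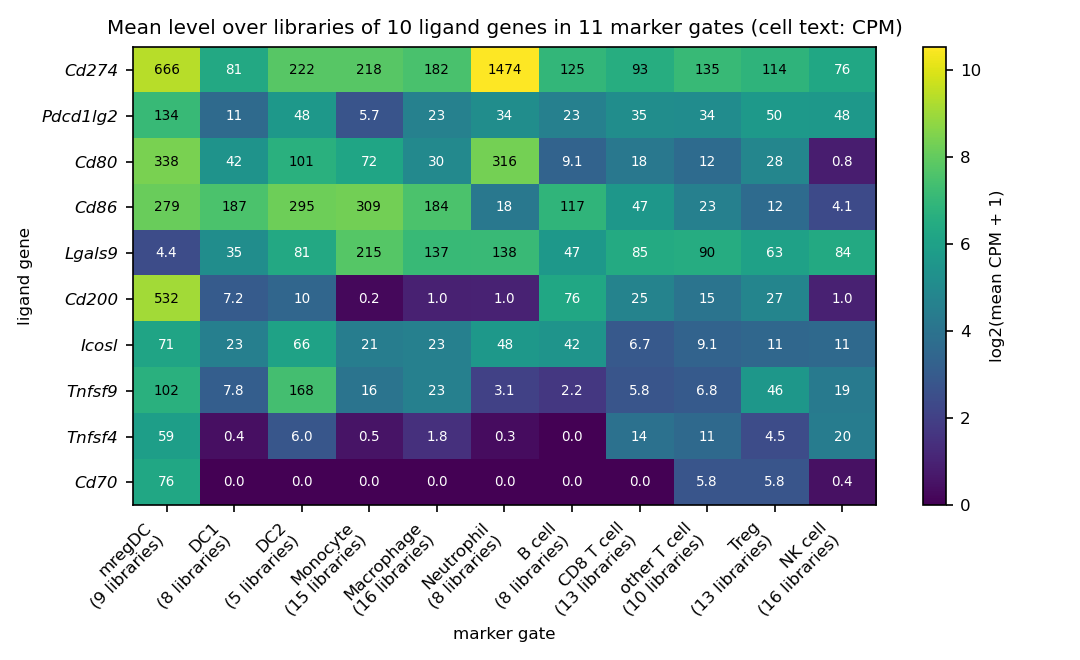
Mean CPM of each ligand gene (rows) in each of 11 gated classes (columns), printed in the cells and coloured as log2(mean CPM + 1). Each mean is taken over the libraries with at least 5 barcodes in the gate, between 5 for DC2 and 16 for macrophages and NK cells; Cd274 stands out in neutrophils at 1474 CPM and Cd200 in mregDCs at 532 CPM.

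The PD-1 ligands differed in where they were found. Cd274 ran from 958 to 2074 CPM in neutrophils (median 1475, n = 8 libraries), from 266 to 973 in mregDCs (median 677, n = 9) and from 48.1 to 410 in macrophages (median 168, n = 16). The lowest mregDC library was thus above the macrophage median, and all but 1 neutrophil library were above the highest mregDC library. Neutrophils exceeded mregDCs by 1.34 ± 0.26 on the log2 scale (SE, adjusted p = 6.5e-06), a comparison in which 52.7% of all genes tested were called. The mregDCs in turn exceeded DC2 (222 ± 130 CPM, SD, n = 5) by 1.86 ± 0.36 and DC1 (80.9 ± 64.2, n = 8) by 3.04 ± 0.31. Further down the order DC2, monocytes (218 ± 114) and macrophages (182 ± 113) did not differ from their neighbours beyond the spread, with an adjusted p of 0.61 for DC2 against monocytes and 0.32 for monocytes against macrophages. The lymphoid gates and DC1 held between 76.2 and 135 CPM, and none differed from the gate next to it in the order.

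Pdcd1lg2, whose product shares the receptor PD-1, was highest in mregDCs at 134 ± 72.5 CPM (SD, n = 9, range 60.8 to 295). Among the 11 classes Tregs came next with 49.9 ± 22.2 CPM (n = 13), lower than mregDCs by 1.51 ± 0.34 on the log2 scale (adjusted p = 9e-05). From Tregs through NK cells (47.9), DC2 (47.6), CD8 T cells (34.6) and neutrophils (34.3) no neighbour differed from the next. Monocytes were lowest with 5.73 ± 6.97 CPM, with macrophages 1.43 higher on the log2 scale. Cd274 and Pdcd1lg2 are adjacent genes, but the neutrophil level of Cd274 had no counterpart in Pdcd1lg2, in which mregDCs exceeded neutrophils by 1.52 on the log2 scale.

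The CD28 ligands Cd80 and Cd86 also parted in neutrophils. Cd80 ran from 137 to 620 CPM in mregDCs (median 338, n = 9) and from 258 to 481 in neutrophils (median 289, n = 8), so the ranges overlapped. In the fit within libraries, neutrophils were higher by 0.60 ± 0.25 on the log2 scale (adjusted p = 0.039), although the mean over libraries was higher in mregDCs (338 ± 142 against 316 ± 72.6 CPM). The highest mregDC value came from MC38, where no library had enough gated neutrophils. Cd86 was held by neutrophils at only 17.8 ± 8.47 CPM, against 279 ± 127 in mregDCs, a log2 difference of -3.65. Monocytes (309 ± 108), DC2 (295 ± 135), mregDCs and DC1 (187 ± 70.1) formed a plateau of Cd86 in which no neighbours differed. Macrophages held 184 ± 88.7 CPM of Cd86 and 30.3 ± 19.6 of Cd80, and monocytes exceeded them by 0.71 and 1.22 on the log2 scale. NK cells held the least of both (0.774 ± 1.41 CPM of Cd80 and 4.14 ± 6.53 of Cd86).

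Icosl, the only known ligand of ICOS, was highest in mregDCs (70.9 ± 47.0 CPM, n = 9) and DC2 (65.6 ± 35.2, n = 5), which did not differ (log2 difference 0.25 ± 0.38, adjusted p = 0.69). Neutrophils (47.7), B cells (42.4), macrophages (23.3), DC1 (22.5) and monocytes (21.2) descended from there without a step between neighbours past the test. Classes further apart did differ. The called log2 differences were 1.29 for neutrophil minus macrophage, 1.92 for mregDC minus DC1 and -1.46 for macrophage minus mregDC. Of all genes, 71.3%, 43.9% and 55.8% were called in these comparisons. The step down to NK cells, at 11.03 CPM, was 1.43 ± 0.26.

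Lgals9 was lower in mregDCs than in DC1 and DC2. Only 10 UMIs were counted in all mregDCs together, a pooled level of 8.10 CPM with an exact Poisson interval of 3.89 to 14.9 for counting error. DC1 held 34.9 ± 23.9 CPM (SD, n = 8) and DC2 81.3 ± 42.5 (n = 5), above mregDCs by 2.33 ± 0.58 and 3.17 ± 0.59 on the log2 scale. Monocytes (215 ± 71.6), neutrophils (138 ± 33.6) and macrophages (137 ± 55.4) held the most. Macrophages exceeded mregDCs by 4.17 ± 0.43, while the other 9 ligands were lower in macrophages, in a comparison where 15.5% of all genes were lower and 40.3% higher.

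Cd200 was concentrated in mregDCs, with 266 to 756 CPM over the 9 libraries (median 555). Of the other 10 classes none reached that range, and the B cell gate, next in order, held 33.1 to 106 CPM over 8 libraries. The step between them was 3.08 ± 0.32 on the log2 scale (adjusted p = 5.7e-14). CD8 T cells (25.3 ± 23.4 CPM) and Tregs (27.0 ± 44.8) held some, and monocytes had 3 UMIs against 645 in mregDCs, a ratio of 996 in pooled CPM with a counting interval of 339 to 4841.

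Among the TNF superfamily ligands, Tnfsf9 was shared by DC2 (168 ± 88.8 CPM, n = 5) and mregDCs (102 ± 67.1, n = 9), which did not differ (log2 difference of mregDC minus DC2 0.16 ± 0.47, adjusted p = 0.88). Tregs were 2.26 ± 0.44 below mregDCs at 46.0 ± 59.6 CPM. Tnfsf4 was highest in mregDCs with 58.9 ± 49.9 CPM (n = 9, range 0 to 137), above NK cells (20.3 ± 35.9, n = 16) by 2.39 ± 0.45. NK cells, CD8 T cells (14.2 ± 13.8) and other T cells (10.97 ± 12.8) did not differ in turn. B cells had no Tnfsf4 UMI, which puts mregDCs at least 15.2-fold higher against a floor of 3 counts over the gate.

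Cd70, whose receptor CD27 is carried by T cells, was counted mainly in mregDCs and T cells. The mregDCs held 86 of its UMIs (76.1 ± 60.1 CPM, n = 9, range 0 to 171), and other T cells and Tregs held 24 and 16. DC1, DC2, neutrophils, monocytes and B cells had none, which puts mregDCs at least 75.7, 23.6, 102, 133 and 18.2 times higher against the same floor. Macrophages had 1 UMI and NK cells 3. Counting error is large here, as the ratio to NK cells was 262 with an interval of 86.7 to 1296.

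Over mregDC against DC1, mregDC against DC2, macrophage against mregDC, neutrophil against macrophage and monocyte against macrophage, 37 differences of the 10 genes were called, 23 of them higher in the first-named class. The share of all genes called was 43.9%, 30.6%, 55.8%, 71.3% and 47.6% in the same order. Against such shares the count itself carries little, and the sizes above describe the genes. With the MC38 libraries alone, 1 of these 5 comparisons could be made and 2 of its differences were called, so the class differences rest mainly on Panc02-SIY.

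To learn whether single barcodes held several ligands at once, every barcode was thinned to 2000 UMIs and shallower ones were left out. The mregDCs (99 barcodes, 25 left out) held a mean of 2.87 of the 10 ligand genes, and 61.6% held 3 or more. Neutrophils followed with 1.54 (1168 barcodes, 507 left out), DC2 with 1.44, monocytes with 1.28 and macrophages with 0.89 (2722 barcodes, 1364 left out). NK cells held the fewest, 0.40. Without thinning the means were 4.43 in mregDCs, 1.71 in neutrophils and 1.93 in macrophages, which were sequenced to different depths. Taken per library, mregDCs exceeded DC1 in 8 of 8 libraries by 2.32 ± 0.47 genes (SD), DC2 in 6 of 6 by 1.505 ± 0.476, monocytes in 10 of 10 by 1.75 ± 0.60 and macrophages in 10 of 10 by 2.01 ± 0.54. The exact two-sided sign-flip tests gave p = 0.0078, 0.03125, 0.00195 and 0.00195, each the smallest value these numbers of libraries allow, with adjusted values of 0.0104, 0.03125, 0.0039 and 0.0039 over the 4 pairs. Neutrophils, next in order, were not among these pairs. The mregDCs are described by molecules of this kind, and the list was chosen with earlier results of these data known. A higher count in mregDCs was thus favored beforehand, and the p-values are no independent support for it.

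The ligands that filled mregDC barcodes at this depth were Cd274 (66.7% of barcodes), Cd200 (56.6%), Cd80 (40.4%), Cd86 (39.4%), Pdcd1lg2 (22.2%), Tnfsf9 (20.2%), Tnfsf4 (16.2%), Icosl (13.1%) and Cd70 (11.1%). Lgals9 was found in 1.01%. Neutrophil barcodes were mostly Cd274 (75.3%) and Cd80 (41.4%). Free RNA in the droplets can give single UMIs to any barcode. In Panc02-SIY RT, 0.254% of NK barcodes and 3.48% of B cell barcodes had a Cd80 UMI, and the part of free RNA in these shares was not tested.

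**Figure D2:**
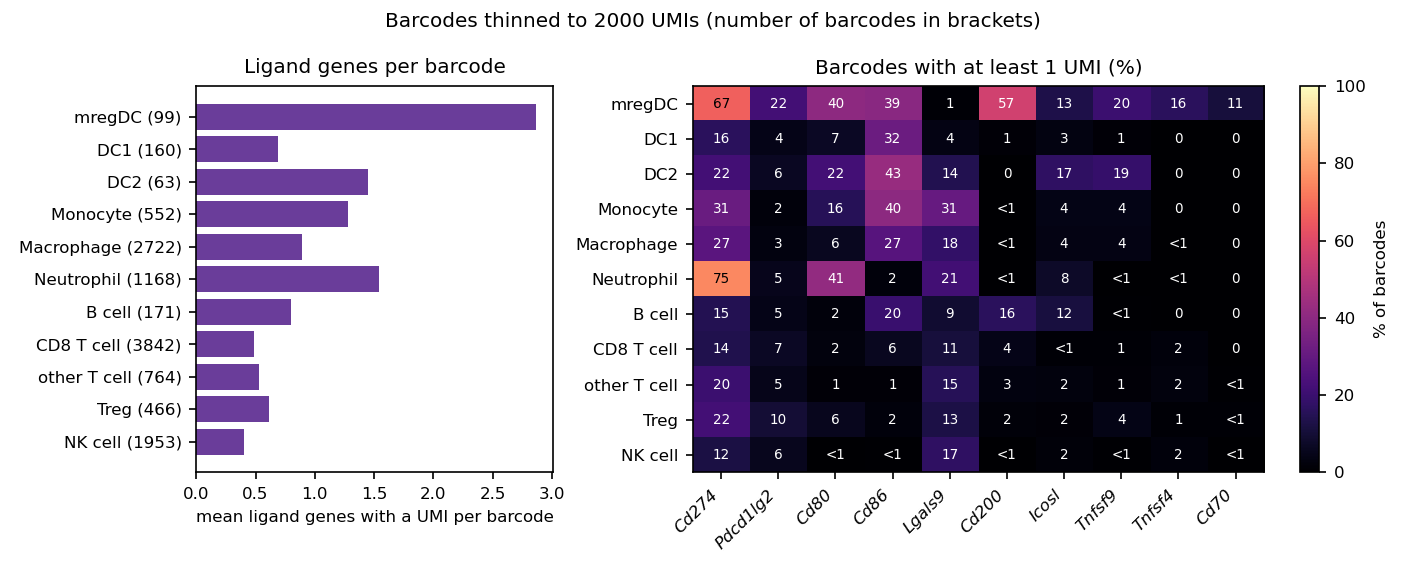
Mean number of ligand genes with at least 1 UMI per barcode (bars) and the percentage of barcodes with a UMI of each gene (heatmap) in each class, all at 2000 UMIs per barcode. The mregDCs averaged 2.87 genes, and 5.05% of them held none.

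Because the classes differ in number, the cells that supplied most of a ligand's UMIs were not always those with the highest level. In MC38, macrophages supplied 69.4% ± 10.8 (SD, n = 4) of Cd274 UMIs in NT and 64.4% ± 14.1 in RT, and 75.0% and 67.7% of Cd86. In Panc02-SIY, neutrophils supplied the largest gated share of Cd274, 26.3% ± 8.5 in NT and 35.1% ± 11.9 in RT, and of Cd80, 38.6% ± 7.5 and 33.9% ± 10.5. For Lgals9 the macrophage share in MC38 was 80.8% and 65.6%. Of the Tnfsf4 UMIs in Panc02-SIY, CD8 T cells supplied a mean of 45.3% ± 13.2 in NT and 29.1% ± 19.3 in RT. In RT they had 7, 90, 70 and 35 of these UMIs per library, against 11, 13, 15 and 39 in NK cells. Cd200 owed 13.04% and 28.2% of its Panc02-SIY UMIs to mregDCs, although they made up 0.415% and 0.664% of barcodes. CD8 T cells had 81, 126, 143 and 187 Cd200 UMIs in the NT libraries, against 53, 8, 47 and 72 in mregDCs. In RT the counts were 28, 72, 212 and 73 in CD8 T cells and 35, 159, 59 and 117 in mregDCs.

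**Figure D3:**
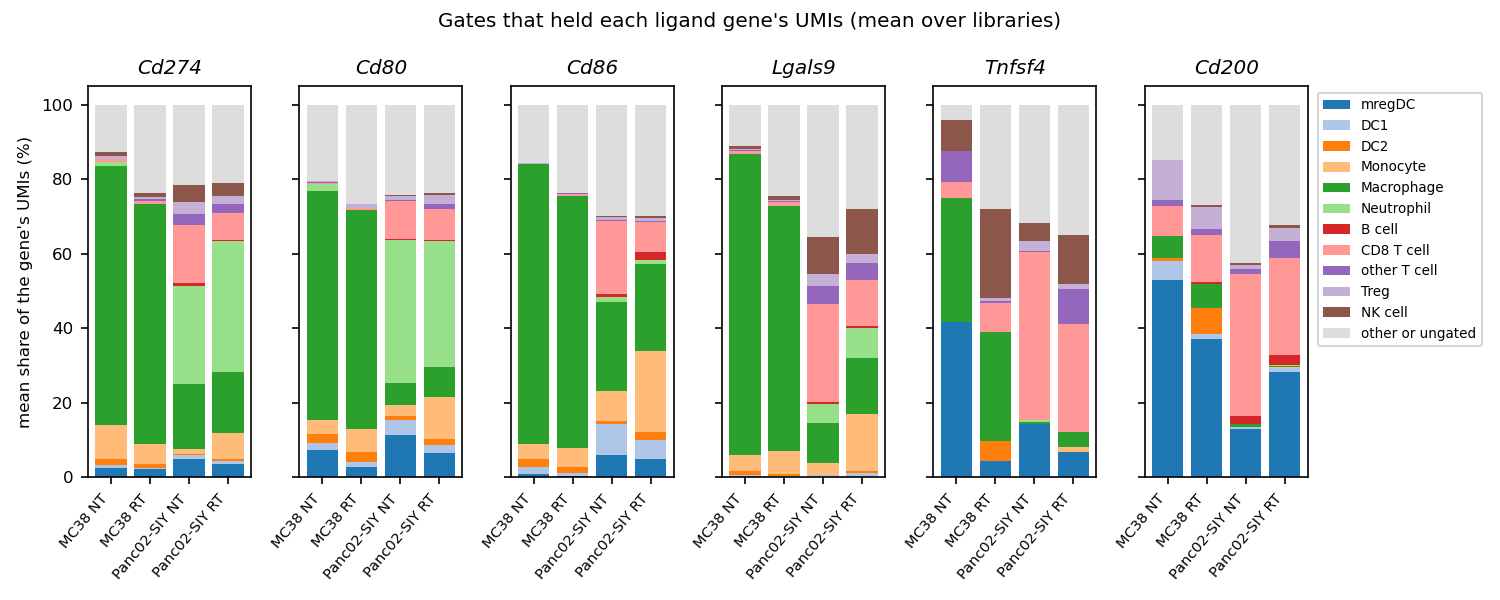
Mean share (%) of a gene's UMIs that each gate supplied in each of the 4 groups, stacked to 100%, for 6 ligand genes (n = 4 libraries per bar). Macrophages fill most of the MC38 bars for Cd274, Cd86 and Lgals9, while neutrophils supply the largest gated share of Cd274 and Cd80 in Panc02-SIY.

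The effect of radiation was tested next, first over all kept CD45+ barcodes of a library. In such sums a change in the share of a class and a change in RNA per cell cannot be told apart. In MC38, Tnfsf4, Cd80, Cd274 and Cd86 rose, and in Panc02-SIY these 4 genes, Icosl and Lgals9 rose. No ligand fell in either tumor. Of all genes tested, 7.24% were higher and 4.45% lower in MC38, and 7.69% and 6.99% in Panc02-SIY. The median log2 change of the 10 ligands was 0.58 in MC38 and 0.61 in Panc02-SIY, against 0.04 and -0.03 over all genes. The 10 genes were chosen with earlier results of these data known, so these medians describe the list and do not test it. As a check of the treatment labels, all 9 tested p53 target genes rose in both tumors, among them Cdkn1a, the cell cycle inhibitor, by 1.92 and 2.88.

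Tnfsf4 showed the largest MC38 change. It stood at 0.686, 0.584, 0.326 and 0.706 CPM in the 4 MC38 NT libraries and at 7.22, 6.96, 5.60 and 6.59 in MC38 RT. In Panc02-SIY it went from 6.00, 3.86, 7.79 and 2.15 to 12.1, 13.5, 16.7 and 7.37 CPM. The MC38 groups were far apart, whereas the Panc02-SIY groups overlapped in 1 library each. The log2 changes were 3.57 ± 0.47 (SE, adjusted p = 0.00037) and 1.295 ± 0.313 (adjusted p = 0.0115). The MC38 values rest on few molecules, 13 UMIs in all NT libraries together and 113 in RT.

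Cd80 rose by a similar amount in both tumors. It went from 26.1, 31.3, 30.1 and 23.3 CPM to 80.1, 36.9, 63.9 and 70.3 in MC38 and from 30.6, 19.4, 21.8 and 12.6 to 61.8, 45.6, 76.8 and 36.2 in Panc02-SIY. Neither pair of groups overlapped. The log2 changes were 1.28 ± 0.28 (adjusted p = 0.0115) and 1.34 ± 0.26 (adjusted p = 0.0046).

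Cd86, which shares CD28 and CTLA-4 with Cd80, had tight groups. It measured 202, 211, 211 and 222 CPM in MC38 NT and 333, 303, 272 and 253 in MC38 RT. The Panc02-SIY values were lower, 48.6, 47.9, 45.6 and 38.4 in NT, and rose to 63.9, 67.5, 91.5 and 82.4. Both pairs of groups were separate, with log2 changes of 0.55 ± 0.11 (adjusted p = 0.0060) and 0.69 ± 0.11 (adjusted p = 0.0012).

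Cd274 was more variable. In MC38 NT it measured 72.4, 110, 61.4 and 93.3 CPM and in MC38 RT 343, 142, 138 and 98.5, so that 1 irradiated library lay within the untreated range and replicate 1, the smallest library, far above the rest. In Panc02-SIY it went from 119, 169, 106 and 121 to 258, 223, 269 and 305 without overlap. The log2 changes were 1.15 ± 0.30 (adjusted p = 0.0287; 0.71 with adjusted p = 0.053 without MC38 RT replicate 1) and 0.96 ± 0.29 (adjusted p = 0.0386). Its partner Pdcd1lg2 changed by 1.08 ± 0.40 in MC38 (adjusted p = 0.110) and 0.13 in Panc02-SIY (adjusted p = 0.87) and was not called.

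Lgals9 and Icosl passed the test in Panc02-SIY. Lgals9 went from 79.2, 63.9, 70.2 and 55.7 CPM to 99.7, 93.1, 91.0 and 97.9 (0.44 ± 0.10, adjusted p = 0.0084). Its MC38 change was of like size, 0.37 ± 0.10 (adjusted p = 0.031), and stayed under the fold required. Icosl went from 15.8, 11.3, 11.2 and 7.12 CPM to 21.0, 15.2, 20.6 and 14.2 in Panc02-SIY, where the groups overlapped (0.60 ± 0.19, adjusted p = 0.0498), and its MC38 value was 0.16 (adjusted p = 0.69). The Icosl call was lost without Panc02-SIY NT replicate 4, RT replicate 1 or RT replicate 3 (0.46 to 0.57, adjusted p = 0.107 to 0.129). Cd200, Tnfsf9 and Cd70 were not called in either tumor.

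Most MC38 calls were lost when barcodes split between libraries were left out. Those barcodes also held 52.4% of kept UMIs in MC38 NT and 67.5% in MC38 RT, so barcode sharing and depth cannot be told apart here. Among barcodes with at least 80% of their UMIs in the retained library, Tnfsf4 was still called (3.27, adjusted p = 0.081), while Cd80 (0.86, adjusted p = 0.45), Cd274 (0.89, adjusted p = 0.35) and Cd86 (0.21, adjusted p = 0.71) were not. In that set 0.524% of all genes were called in MC38, against 11.7% with all kept barcodes. In Panc02-SIY, with 99.9% of barcodes above that bound, Cd80 (1.32), Cd86 (0.69), Cd274 (0.95) and Tnfsf4 (1.25) kept their calls, and Lgals9 (0.43, adjusted p = 0.41) and Icosl (0.58, adjusted p = 0.17) did not. With all kept barcodes these Lgals9 and Icosl changes were 0.44 and 0.60. All 4 groups share 1 fit, so the Panc02-SIY adjusted p also depends on the reduced MC38 libraries. Their part in the lost calls was not tested. The share of gated classes moved as well. Macrophages made up 52.8% ± 7.58 of barcodes in MC38 NT and 42.2% ± 3.61 in RT. In Panc02-SIY, neutrophils, rich in Cd274 and Cd80, went from 7.31% ± 2.17 to 12.5% ± 3.42 and monocytes, rich in Cd86 and Lgals9, from 1.17% ± 0.922 to 4.23% ± 0.758. Their part in the sums was not tested apart from the gates below.

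**Figure D4:**
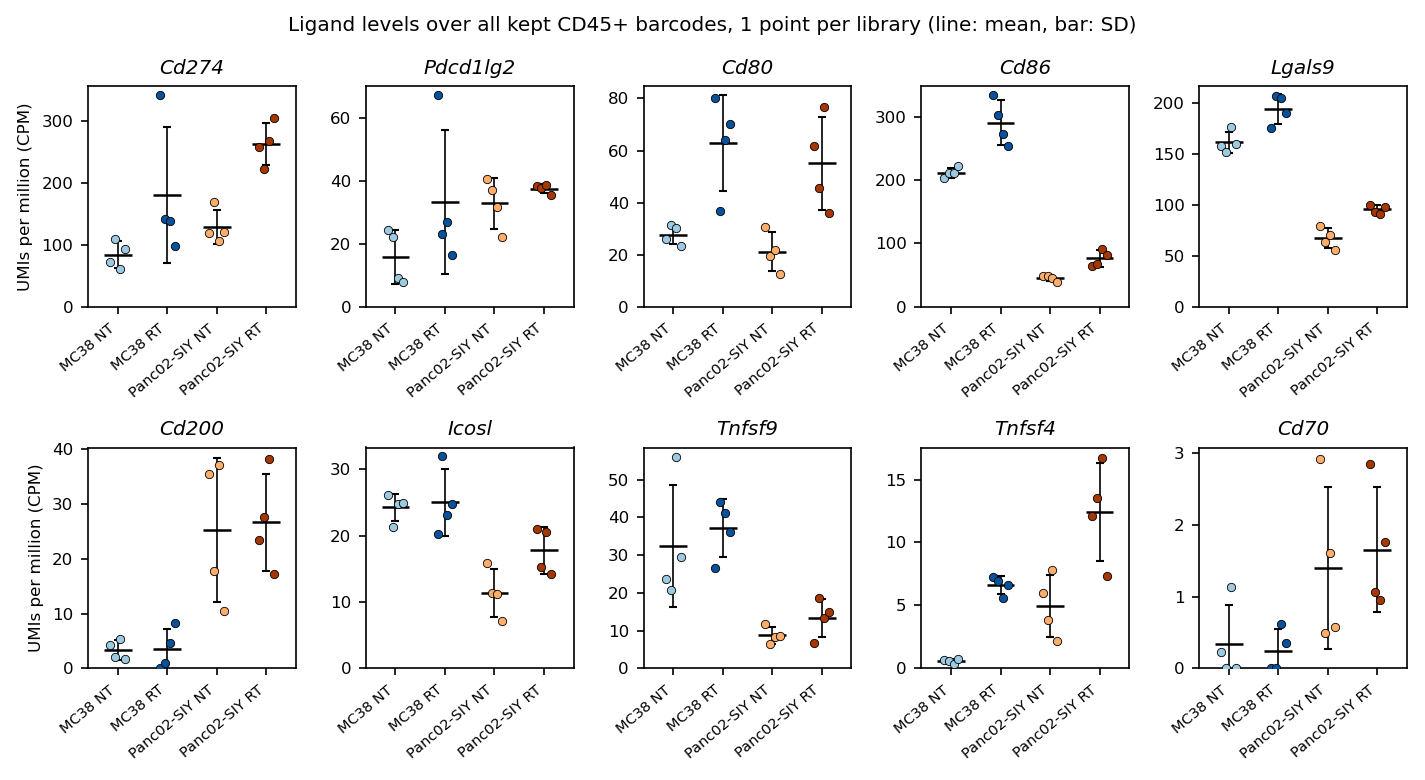
CPM of each of the 10 ligand genes over all kept CD45+ barcodes, 1 point per library, in the 4 groups, with the mean as a line and the SD as a bar. Cd80, Cd86 and Tnfsf4 in MC38 and Cd80, Cd86, Cd274 and Lgals9 in Panc02-SIY show irradiated libraries all above the untreated ones.

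Whether the 2 tumors differed in their response was tested as an interaction. None of 33 tests of ligand genes was called by edgeR, with 1 at an unadjusted p under 0.05 and 1 call by DESeq2. That gene was Tnfsf4 over all CD45+ barcodes, whose change was larger in MC38 by 2.28 ± 0.58 on the log2 scale (adjusted p = 0.134 by edgeR and 0.044 by DESeq2). Over all genes, 0.345% were called.

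In MC38, only the T cell, NK cell, monocyte and macrophage gates had the 3 libraries per group that a radiation test required. Within the gates, macrophages of both tumors gained Cd80 after radiation. Their Cd80 went from 24.6, 24.9, 16.6 and 20.8 CPM to 69.3, 37.6, 56.3 and 59.2 in MC38 and from 10.8, 12.9, 10.6 and 5.198 to 30.7, 45.7, 43.9 and 15.1 in Panc02-SIY. All irradiated libraries were above all untreated ones. The log2 changes were 1.45 ± 0.29 (adjusted p = 0.0049) and 1.91 ± 0.41 (adjusted p = 0.021), in fits that called 5.58% of all genes higher in MC38 and 2.46% in Panc02-SIY. Among barcodes with at least 80% of UMIs in the retained library, the changes were 1.06 (adjusted p = 0.67) and 1.90 (adjusted p = 0.18). That bound was met by 1702 of 1704 Panc02-SIY macrophage barcodes in NT and 1098 of 1098 in RT, in a fit shared with the reduced MC38 libraries. Without Panc02-SIY NT replicate 4, the lowest library, the Panc02-SIY change was 1.36 (adjusted p = 0.18).

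Macrophage Cd86 was called in MC38, with 212, 205, 185 and 225 CPM in NT and 368, 316, 269 and 259 in RT (0.63 ± 0.16, adjusted p = 0.018, and 0.27 with adjusted p = 0.88 among barcodes with at least 80% of UMIs in the retained library). In Panc02-SIY the same gene went from 68.3, 127, 77.6 and 73.7 to 172, 142, 132 and 104 CPM and missed the threshold (0.57 ± 0.18, adjusted p = 0.104). Lgals9 rose in Panc02-SIY macrophages by 0.82 ± 0.21 (adjusted p = 0.046). This call was lost without NT replicate 2, 3 or 4 or RT replicate 3 (0.63 to 0.84, adjusted p = 0.102 to 0.219). It was also lost among barcodes with at least 80% of UMIs in the retained library, with a change of 0.79 (adjusted p = 0.44). Macrophage Cd274 did not pass in either tumor (1.32 ± 0.47, adjusted p = 0.109, and 0.67 ± 0.46, adjusted p = 0.53).

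Markers of monocytes, which exceeded macrophages in Cd80, Cd86 and Lgals9, moved within the macrophage gate. All 8 monocyte markers were present there, and their summed level was 1628 to 2017 CPM in MC38 NT and 2432 to 2538 in MC38 RT. In Panc02-SIY it was 165 to 557 and 487 to 1139 CPM. Their part in the macrophage results was not tested. The neutrophil markers in this gate summed to 94.6 to 120 and 85.5 to 116 CPM in MC38 and 147 to 334 and 198 to 310 in Panc02-SIY.

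T cells of Panc02-SIY tumors gained Cd80, a ligand better known from presenting cells, and Tnfsf4. In the combined T cell gate, Cd80 went from 5.34, 5.86, 9.10 and 5.28 CPM to 32.1, 20.5, 27.9 and 17.8, a log2 change of 1.81 ± 0.25 (adjusted p = 3.9e-05). Tnfsf4 went from 4.63, 6.78, 9.31 and 4.06 to 14.5, 23.5, 23.9 and 11.1 CPM (1.504 ± 0.288, adjusted p = 0.0031). Neither gene's groups overlapped, and 4.23% of all genes were called in this fit. In the MC38 T cell gate neither gene was called, with 0 to 4 Cd80 UMIs per NT library and 1 to 9 per RT library.

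CD8 T cells alone showed the same for Cd80, with 6.79, 5.73, 9.23 and 5.64 CPM in NT and 43.3, 20.4, 26.5 and 16.02 in RT (1.74 ± 0.26, adjusted p = 0.00022, with 2.86% of all genes called). Their Cd274 went from 61.6, 77.5, 60.7 and 70.3 to 107, 80.01, 104 and 129 CPM (0.55 ± 0.16, adjusted p = 0.079). At 2000 UMIs, 1.26% of CD8 barcodes had a Cd80 UMI in NT and 3.83% in RT. NK barcodes had 0.293% and 0.254%, and B cell barcodes 0% of 54 and 3.48% of 115. Median depths of CD8 and NK barcodes were 7007.5 and 4556 UMIs before thinning. Tregs went from 2.76, 14.1, 11.9 and 0 to 31.9, 37.5, 56.3 and 34.1 CPM of Cd80 (2.31 ± 0.55, adjusted p = 0.065), in a fit with 0.462% of all genes called. The Treg call was lost without NT replicate 1, 3 or 4 or RT replicate 1, 2 or 3 (1.97 to 2.65, adjusted p = 0.108 to 0.361), by DESeq2, with doublets removed (2.11, adjusted p = 0.143) and with libraries thinned to a like mean depth per barcode (1.71, adjusted p = 0.222). The CD8 T cell Cd274 call was lost without NT replicate 1, 2 or 3 or RT replicate 1, 3 or 4 (0.39 to 0.62, adjusted p = 0.118 to 0.231).

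Markers of neutrophils, which held much Cd80 and Cd274, were present in these gates, and their median was higher after radiation. The 9 neutrophil markers summed to 14.4 to 39.3 CPM (median 32.7) in Panc02-SIY NT CD8 T cells and 21.7 to 860 (median 65.7) in RT, the highest being RT replicate 1, which also had the highest Cd80. In the T cell gate they went from 17.1 to 53.1 (median 35.3) to 25.8 to 454 (median 102) and in Tregs from 46.3 to 130 (median 70.7) to 40.9 to 410 (median 178), with overlap between the groups in each gate. Without that library the Cd80 change in CD8 T cells was 1.54 (adjusted p = 0.00062). The mregDC markers summed to 162 to 190 CPM in NT CD8 T cells and 215 to 258 in RT, and to 255 to 417 and 405 to 577 in Tregs. The macrophage markers in CD8 T cells summed to 115 to 562 and 167 to 432. Beyond the value without RT replicate 1, the part of these cells in the Cd80 result was not tested.

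Tnfsf4 was called higher after radiation in other T cells of Panc02-SIY and NK cells of MC38, while untreated CD8 T cells of Panc02-SIY already held 4.28 to 10.6 CPM. Other T cells had no CD8 marker UMI, no Foxp3 UMI and at most 1 Treg marker. They had 1 Tnfsf4 UMI in all 4 Panc02-SIY NT libraries (0, 0, 0 and 0.994 CPM) and 48 in RT (27.6, 7.23, 18.9 and 26.2 CPM), a ratio of 48.0 with a counting interval of 8.22 to 1936 (adjusted p = 0.00097, with 1.19% of all genes called). NK cells of MC38 tumors had 1 UMI in NT (4.42, 0, 0 and 0 CPM) and 30 in RT (118, 11.4, 24.9 and 102 CPM), a ratio of 29.1 with an interval of 4.83 to 1186 (adjusted p = 0.071, with 0.202% called). The call in MC38 NK cells was lost without any 1 of the NT libraries, RT replicate 1 or RT replicate 4 (adjusted p = 0.118 to 0.406), and among barcodes with at least 80% of UMIs in the retained library (adjusted p = 0.37). It was also lost with all barcodes of every library (adjusted p = 0.310), with a filter on genes per barcode and mitochondrial UMIs (0.314), with 1 more marker required by the gate (0.109) and by DESeq2. In Panc02-SIY NK cells, with 0.533% of all genes called, the change was 1.79 ± 0.52 (adjusted p = 0.147), and in CD8 T cells 1.42 (adjusted p = 0.123). With the replicate number as a block in the same test, these changes were 1.83 (adjusted p = 0.065) and 1.28 (adjusted p = 0.00016). No label ties that number to an animal or a day. At 2000 UMIs, the share of Panc02-SIY barcodes with a Tnfsf4 UMI went from 0.855% to 3.83% in CD8 T cells and from 0.293% to 2.96% in NK cells. It was 0% and 0.742% in macrophages, 0.2% and 0% in neutrophils, and 0% in both groups of monocytes and B cells. The part of free RNA or doublets in these shares was not tested.

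Among dendritic cells, Lgals9 was called after radiation in Panc02-SIY. In MC38 no dendritic cell gate could be tested, as even the cDC gate had only 2 RT libraries with at least 5 barcodes. In DC1 it went from 13.1, 9.20, 29.8 and 13.3 CPM to 35.1, 78.8, 50.7 and 49.4 (1.76 ± 0.45, adjusted p = 0.055, with 1.29% of all genes called), and in all cDCs from 4.24, 8.47, 26.3 and 12.5 to 16.7, 51.4, 53.3 and 37.9 (1.67 ± 0.40, adjusted p = 0.083, with 0.505% called). The DC1 groups did not overlap. Monocyte markers summed to 347 to 959 CPM in NT and 1311 to 2037 in RT within the DC1 gate (5 of 8 detected in both) and to 417 to 619 (5 of 8 detected) and 986 to 1519 (7 of 8) within the cDC gate. Neutrophil markers summed to 29.5 to 72.3 and 100.4 to 276 CPM in DC1 and to 33.4 to 84.7 and 86.2 to 253 in cDCs. The cDC gate held 39 mregDC, 106 DC1 and 8 DC2 barcodes in NT and 58, 73 and 35 in RT, and DC2 had the highest mean Lgals9 of these classes. The part of these markers and of this mix in the result was not tested. Both calls were lost without NT replicate 2 or 4 or RT replicate 2, 3 or 4 (1.55 to 1.83 with adjusted p = 0.101 to 0.346 in DC1, and 1.52 to 1.72 with adjusted p = 0.127 to 0.434 in cDCs), and DESeq2 did not call the DC1 change. The cDC call was also lost among barcodes with at least 80% of UMIs in the retained library (1.63, adjusted p = 0.25), in a fit shared with the reduced MC38 libraries.

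The mregDCs themselves showed no call for any of 9 ligands tested in Panc02-SIY, in a fit where 0.0672% of all genes were called; edgeR gave 1 of the 9 an unadjusted p under 0.05, and DESeq2 called 0. Their Cd274 measured 722, 595 and 744 CPM in NT and 665, 677, 953 and 973 in RT (0.30 ± 0.27), and their Cd200 364, 756 and 547 and then 597, 727, 586 and 555 (0.24 ± 0.28). Pdcd1lg2 was 61.9, 96.5 and 60.8 in NT and 102, 110, 149 and 157 in RT, which do not overlap, with a log2 change of 0.98 ± 0.42 that did not pass (adjusted p = 1.0). With 39 and 58 mregDC barcodes in these groups, changes of this size could not be separated from the spread. Neutrophil Cd274 (958, 1804, 1079 and 1217, then 1513, 1437, 1709 and 2074 CPM) and Cd80 (280, 269, 299 and 326, then 343, 275, 481 and 258 CPM) were not called either, with log2 changes of 0.40 ± 0.19 and 0.17 ± 0.18 in a fit that called 0.0397% of all genes.

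**Figure D5:**
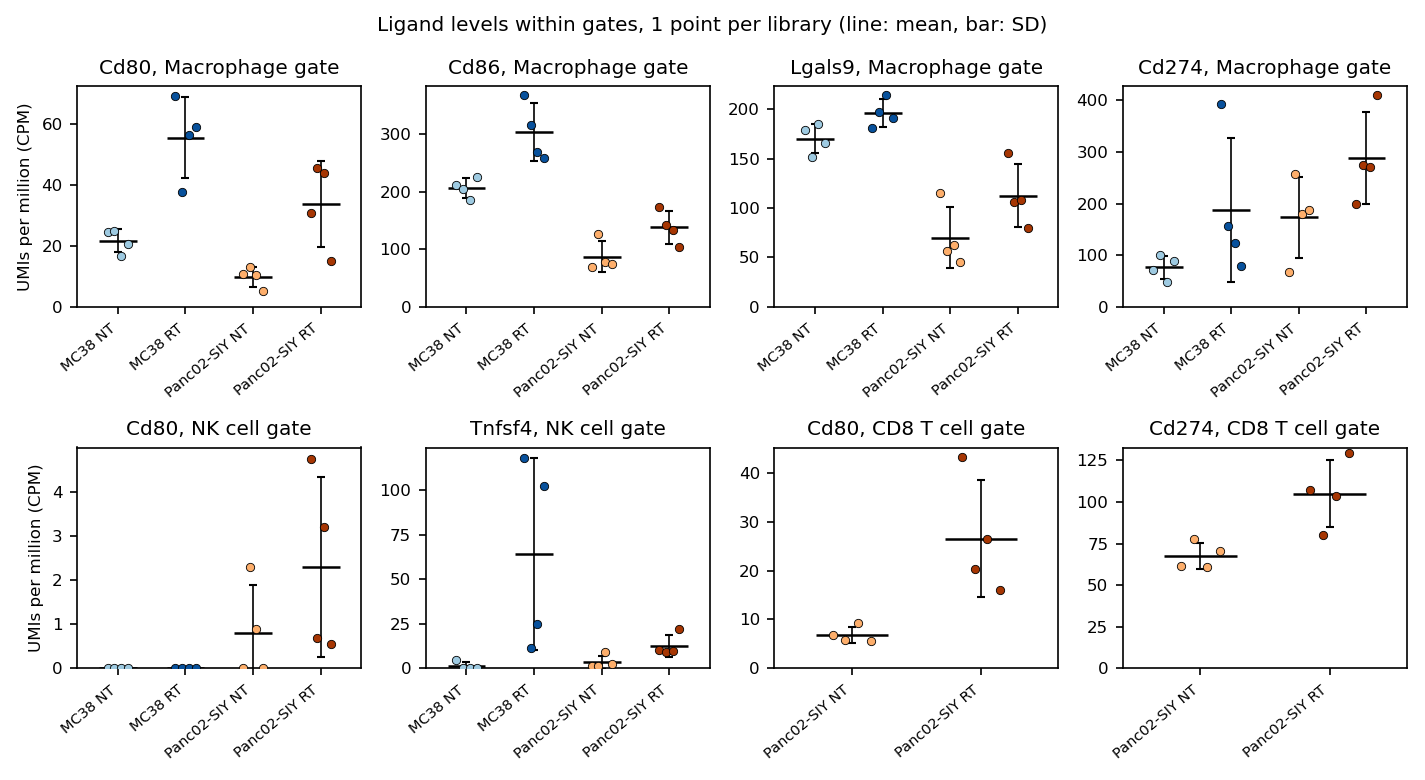
CPM per library of selected ligand genes in the macrophage, NK cell and CD8 T cell gates by group, with mean lines and SD bars. Macrophage Cd80 was higher in all 4 irradiated libraries of each tumor, and NK cell Cd80 stayed at or below 4.75 CPM in every library.

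Over all gates and the CD45+ sums, 7 of 33 ligand tests in 5 populations were called after radiation in MC38 and 16 of 85 in 13 populations in Panc02-SIY, all higher. The populations overlap, since the CD45+ sums contain the gates. Shares of all genes called differed by fit, for example 0.0397% in neutrophils and 4.23% in the T cell gate of Panc02-SIY. These pooled counts are therefore not read as a result on the ligands.

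The tumors themselves differed in several ligands. These contrasts use the same libraries as the radiation contrasts. Over all CD45+ barcodes of untreated tumors, MC38 was higher than Panc02-SIY in Cd86 (log2 difference 2.43 ± 0.12), Tnfsf9 (2.15 ± 0.34), Lgals9 (1.47 ± 0.10), Icosl (1.35 ± 0.20) and Cd80 (0.62 ± 0.27, adjusted p = 0.058) and lower in Tnfsf4 (-2.82 ± 0.46), Cd200 (-2.68 ± 0.58) and Pdcd1lg2 (-0.90 ± 0.38, adjusted p = 0.051). Here 61.1% of all genes were called. Tnfsf9, for example, measured 23.5, 20.7, 56.0 and 29.5 CPM in MC38 NT and 11.7, 6.42, 8.30 and 8.53 in Panc02-SIY NT, with no overlap. After radiation, where 58.5% of genes were called, Cd86 (2.29), Tnfsf9 (1.83), Lgals9 (1.40), Icosl (0.91) and Cd80 (0.56 ± 0.26, adjusted p = 0.077) were higher in MC38 and Cd200 was lower (-2.11), while Tnfsf4 was not called (-0.54, adjusted p = 0.17). Leaving out 1 library at a time took the Cd80 call away in 4 of 8 cases in untreated tumors (MC38 NT replicates 2 and 3, Panc02-SIY NT replicates 2 and 4; 0.44 to 0.60, adjusted p = 0.115 to 0.174) and in 6 of 8 in irradiated ones (MC38 RT replicates 1, 3 and 4, Panc02-SIY RT replicates 1, 2 and 4; 0.32 to 0.55, adjusted p = 0.131 to 0.326). The untreated Pdcd1lg2 call was lost without MC38 NT replicate 3 or 4 or Panc02-SIY NT replicate 1 or 2 (-0.82 to -0.65, adjusted p = 0.109 to 0.159). Cd274 was not called in either state (-0.42, adjusted p = 0.22, and -0.23, adjusted p = 0.51). MC38 tumors held more macrophages and Panc02-SIY tumors more T cells (macrophages 52.8% against 14.9% ± 6.90 and CD8 T cells 1.69% against 24.6% of untreated barcodes).

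Several of these differences were also called between macrophages of the 2 tumors. Untreated MC38 macrophages were higher in Tnfsf9 (1.86), Lgals9 (1.60), Cd80 (1.49) and Cd86 (1.31) and lower in Cd274 (-1.18 ± 0.47, adjusted p = 0.058), in a fit with 45.8% of genes called. The Cd274 call was lost without MC38 NT replicate 1 or 3 or Panc02-SIY NT replicate 2 or 4 (-1.16 to -0.93, adjusted p = 0.112 to 0.175), and Cd80 was 0.97 without Panc02-SIY NT replicate 4. Irradiated ones were higher in Cd86 (1.36), Tnfsf9 (1.16), Lgals9 (1.08), Cd80 (1.022) and Icosl (0.46), with 47.7% called. Here Cd80 was 0.63 without Panc02-SIY RT replicate 4, and the Icosl call was lost without MC38 RT replicate 2 or Panc02-SIY RT replicate 2 or 4 (0.33 to 0.47, adjusted p = 0.140 to 0.218). Monocyte markers were higher in the MC38 macrophage gate in both states (1628 to 2017 against 165 to 557 CPM untreated, 2432 to 2538 against 487 to 1139 irradiated), and their part in these differences was not tested.

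Monocytes of MC38 tumors held more Lgals9 (1.01 untreated and 0.61 irradiated) and Cd86 (0.61 and 0.76), with 24.1% and 30.1% called. The irradiated monocyte difference of Lgals9 had the opposite sign, -0.24 (adjusted p = 0.77), among barcodes with at least 80% of UMIs in the retained library, and its call was lost without MC38 RT replicate 2 or Panc02-SIY RT replicate 2 or 3 (0.48 to 0.50, adjusted p = 0.154 to 0.179). The untreated monocyte call of Cd86 was lost without Panc02-SIY NT replicate 1, 3 or 4 (0.51 to 0.56, adjusted p = 0.157 to 0.231). Lgals9 was also higher in untreated MC38 cDCs (3.00 ± 0.44, with 4.25% called). That gate held 14 mregDC, 8 DC1 and 12 DC2 barcodes in MC38 against 39, 106 and 8 in Panc02-SIY, and its monocyte markers summed to 1184 to 2748 against 417 to 619 CPM; their part in the difference was not tested. Further calls were higher Tnfsf9 in untreated MC38 Tregs (2.73, adjusted p = 0.029, with 4.0% called) and in the T cell gate (2.66, adjusted p = 0.092, with 9.9% called), and Tnfsf4 in irradiated MC38 NK cells (2.39 ± 0.51, adjusted p = 0.002, with 14.8% called). The T cell call was lost without MC38 NT replicate 1 or 3 (2.10 and 2.12, adjusted p = 0.319 and 0.377) and the NK cell call without MC38 RT replicate 4 (1.42, adjusted p = 0.314). Among barcodes with at least 80% of UMIs in the retained library, the irradiated calls of Cd80 over all CD45+ barcodes (adjusted p = 0.18), of Icosl and Lgals9 in macrophages (0.11 and 0.16), of Cd86 in monocytes (0.22) and of Tnfsf4 in NK cells (0.21) and the untreated call of Tnfsf9 in the T cell gate (0.36) were lost. Over all populations 18 of 49 untreated and 14 of 42 irradiated ligand tests were called. Shares of all genes called differed by fit, for example 61.1% over all CD45+ barcodes and 4.0% in Tregs of untreated tumors. These pooled counts are likewise not read as a result on the ligands.

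The receptors of these ligands, a list of 9 genes, showed little radiation change over all CD45+ barcodes. In MC38, Cd28 (1.4996 ± 0.37, adjusted p = 0.023) and Icos (1.27 ± 0.37, adjusted p = 0.046) rose, and in Panc02-SIY Cd27 fell by 0.51 on the log2 scale (SE 0.17, adjusted p = 0.061). Cd28, the receptor of CD80 and CD86, went from 25.4, 13.1, 15.5 and 15.6 CPM to 90.9, 23.7, 47.5 and 33.6 in MC38. Of the 9 receptors 8 were lower in MC38 than in Panc02-SIY both before and after radiation, among them Pdcd1, which encodes PD-1 (-3.51 and -2.53), and Cd28 (-3.76 and -2.16). Of all genes, 61.1% and 58.5% were called in these contrasts, so the count carries little. CD8 T cells made up 1.69% of untreated MC38 barcodes and 24.6% of untreated Panc02-SIY barcodes. The part of class shares in these sums was not tested. Havcr2, which encodes TIM-3, was not called.

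Of 15 further B7 and TNF superfamily ligand genes, 12 were tested over all CD45+ barcodes and 1 changed after radiation, Tnfsf8, which encodes the CD30 ligand. It went from 25.4, 23.7, 23.5 and 18.2 to 37.5, 34.8, 65.8 and 40.5 CPM in MC38 (1.11 ± 0.35, adjusted p = 0.061) and from 29.5, 12.3, 21.1 and 10.6 to 91.8, 64.2, 37.7 and 39.4 in Panc02-SIY (1.63 ± 0.33, adjusted p = 0.0056). Among 16 interferon gamma and NF-kB signaling genes, 6 rose in MC38, including Ifng (1.79 ± 0.60, adjusted p = 0.08), Socs1 (0.88), Jak2 (0.67) and Irf1 (0.58). In Panc02-SIY 3 rose, namely Cd40, which receives T cell help on presenting cells (1.36 ± 0.22), Ifngr2 (0.61) and Jak2 (0.51). None of the 16 fell in either tumor. For these lists and the receptors above, the shares over all genes were 7.24% higher and 4.45% lower in MC38. In Panc02-SIY they were 7.69% and 6.99%. The MC38 values of these receptor, ligand and signaling genes are given for all kept barcodes only.

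Genes whose pattern over the 36 combinations of class and group was closest to each ligand were named from 5982 genes with sufficient level. For Cd80 these were Dennd5a (Pearson r = 0.89), Jak2 (0.88) and Slc6a6 (0.87), for Cd274 Pde4b (0.81), Gbp5 (0.80) and Slc7a11 (0.78), and for Cd86 Plekho1 (0.93), Ctsh (0.89) and Scpep1 (0.86). Lgals9 came closest to Cept1 (0.87) and Itgb2 (0.85), Cd200 to Insl6 (0.89) and Fam60a (0.87), Icosl to Bmp2k (0.81), Pdcd1lg2 to Wnk1 (0.76) and Cd70 to Ramp3 (0.83). Tnfsf4 and Tnfsf9 had no gene as close, with a highest r of 0.67 (Glipr2) and 0.71 (Syngr2). Among the ligands themselves, Cd274 and Cd80 went together (r = 0.73), and Lgals9 ran against Cd200 (r = -0.84) and Pdcd1lg2 (r = -0.65). These correlations are descriptions over points that share libraries and classes.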

How the data were processed

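Counts of UMIs per gene and barcode were used as the authors deposited them, 1 matrix per library, made with Cell Ranger 3.1.0 after bcl2fastq 2.20.0 on build mm10 per the submitters' processing notes; the gene annotation is not given in the sources used here. Reads had been assigned to barcodes by 3' end sequencing on the 10x platform (v3.0 chemistry). No further barcode filter was set, because some gates hold shallow cells; alternatives removed barcodes under 500 genes or over 10% mitochondrial UMIs, or the 5% with the highest Scrublet doublet score (scanpy 1.11.5) per library. Barcode sequences found in several libraries of a tumor were kept in the library with most UMIs. A barcode was gated to the class with the highest share of its marker list detected, given at least 3 detected markers and a lead of 0.15 over the next share; gated T cells were divided by CD8 and Treg markers. Doublets were kept in the main set. Classes were rebuilt here and are gates, not the study's clusters.

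UMIs were summed per library and gate with at least 5 barcodes. Group contrasts used edgeR 4.0.16 in R 4.3.3 (quasi-likelihood F test, robust, TMM scaling, all 4 groups in 1 fit, at least 3 libraries per group), and class contrasts the same test with the library as a block. P-values were adjusted by Benjamini-Hochberg over all genes tested in a contrast, and a call needed adjusted p below 0.1 and a change above 1.3-fold. SE is that of the fitted log2 change; CPM values are unscaled. Depth ranged from 3240877 to 43776342 UMIs per library; intervals and floors (95%, exact Poisson; 3 counts) cover counting error only. Detection was compared at 2000 UMIs by exact sign-flip permutation over libraries (Python 3.11.15, scipy 1.17.1). Simulated data were run for radiation in MC38 (all CD45+ barcodes and macrophages), radiation in Panc02-SIY cDCs and mregDC against DC1. The tumor differences, the interaction and the sign-flip test were not simulated. Alternatives were RLE scaling, DESeq2 1.42.0, no filter on low counts, only the groups compared, a replicate block, other barcode sets, thinned libraries, a stricter gate, stricter thresholds and leaving out each library.

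The 10 genes and all gene lists were chosen with earlier results of these data known. Named are the 10 members, of each list the counts and up to 4 called genes with the largest change, for each member the genes most alike by Pearson correlation of log2(CPM + 10), and gate markers. No sample column was left unassigned, and no 2 libraries of a group agreed within sampling noise.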

Additional observations from a re-analysis of the deposited data

Results flagged for a closer look

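In 7 of 96 groups of 4 libraries tested, 1 library stood apart from the others by Dixon's criterion, where chance gives about 1 in 20. For Cd80 in the T cell gate this was Panc02-SIY NT replicate 3, with 9.10 CPM against 5.28 to 5.86 in the others. Panc02-SIY NT replicate 2 stood apart for Cd86 in both myeloid gates, in macrophages with 127 CPM against 68.3 to 77.6 and in monocytes with 364 against 211 to 236. Tnfsf4 stood apart in 3 gates. It was 4.42 CPM in NK cells of MC38 NT replicate 1 and 0.994 in other T cells of Panc02-SIY NT replicate 4, each from 1 UMI with 0 in the other libraries, and 21.9 in NK cells of Panc02-SIY RT replicate 4 against 9.01 to 10.4. Tnfsf9 was 43.5 CPM in the T cell gate of MC38 RT replicate 4, from 8 UMIs, against 0 to 3.64.

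Gates too small for a group test also held ligands. Cd200 reached 260 pooled CPM in 28 plasmacytoid dendritic cell barcodes (78 UMIs, interval 206 to 324), where the highest of the 11 classes, mregDC, had 523. Pdcd1lg2 reached 90.9 pooled CPM in 104 mast cell or basophil barcodes (92 UMIs, interval 73.3 to 111), against 143 in mregDCs.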

How the results depend on the processing

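Of 55 called ligand differences between groups, 29 kept direction and call under every alternative. Over all pairs of a difference and an alternative, 971 of 1109 kept both, 137 lost the call and 1 reversed, the irradiated Lgals9 tumor difference in monocytes (-0.24 against 0.61). Of 37 class differences, 34 kept direction and call throughout. With barcodes that had at least 80% of UMIs in the retained library, calls went from 7 to 1 for radiation in MC38 and from 14 to 9 for irradiated tumors. Without the filter on low counts, calls for radiation in Panc02-SIY went from 16 to 25. The interaction went from 0 to 1 call, Tnfsf4, with DESeq2, with the replicate block and without Panc02-SIY NT replicate 4 (0 to 1 over libraries left out). Leaving out 1 library at a time gave 7 to 10 calls for radiation in MC38, 8 to 18 in Panc02-SIY (8 without NT replicate 4 and without RT replicate 3), 12 to 19 for untreated and 11 to 15 for irradiated tumors, and 37 to 38 class differences. With MC38 libraries alone class differences went from 37 to 2, since 1 of the 5 comparisons could be made. T cell gate values of Cd80 and Tnfsf4 in Panc02-SIY have no leave-one-out value. The causes were not tested. No label ties samples with the same replicate number. Correlations between them ran from -0.205 to 0.822, above 0.1 in 8 of 16 and best with the own number in 6 of 16. Between Panc02-SIY NT and RT they were 0.61, -0.19, 0.30 and 0.82 for replicates 1 to 4. With that number as a block, calls were 9 in MC38, 21 in Panc02-SIY, 18 untreated, 16 irradiated and 1 for the interaction. Among others, Tnfsf4 gained a call in CD8 T cells and NK cells of Panc02-SIY. Tnfsf9 in the untreated T cell gate and Cd86 in untreated monocytes lost theirs. Depth limits Cd70 and Tnfsf4 most, with 172 and 1051 UMIs.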

Other observations

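Over conventional dendritic cells as 1 population, radiation in Panc02-SIY raised 4 of 9 tested p53 target genes, Phlda3 (4.85 on the log2 scale), Sesn2 (2.14), Trp53inp1 (1.91) and Ccng1 (1.34), and none of the 7 receptors, 6 further B7 and TNF superfamily ligands or 15 interferon gamma and NF-kB genes tested there was called by edgeR, with 1, 3 and 3 of them at an unadjusted p under 0.05. Of all genes, 0.505% were called in that radiation contrast. In untreated tumors, MC38 cDCs were higher than those of Panc02-SIY in Cd200r1 (2.73, adjusted p = 0.098), the receptor of CD200, and in Tnfsf8 (5.71), and lower in Vsir (-2.01), which encodes the checkpoint protein VISTA. Here 4.25% of all genes were called. The gate held 14 mregDC, 8 DC1 and 12 DC2 barcodes in MC38 against 39, 106 and 8 in Panc02-SIY. Its monocyte markers summed to 1184 to 2748 against 417 to 619 CPM. The part of this mix and of these markers was not tested.

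Tregs of Panc02-SIY held Pdcd1lg2 at 35.9, 39.5, 38.0 and 33.1 CPM untreated and 71.8, 61.8, 70.4 and 68.1 irradiated. The groups did not overlap and were narrow, yet the change of 0.82 ± 0.30 did not pass (adjusted p = 0.41). In cDCs the same gene measured 38.2, 23.3, 17.5 and 7.52 and then 50.2, 69.3, 80.01 and 44.2 CPM (1.69 ± 0.44, adjusted p = 0.119). Monocyte Cd80 in Panc02-SIY measured 29.0, 64.2, 33.9 and 51.9 and then 74.1, 72.7, 101 and 91.4 CPM, also without overlap and without a call (0.88 ± 0.31, adjusted p = 0.32).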
